A study of Mus musculus with 24 samples.

Results

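Brown and beige adipocytes burn fuel to make heat, and their identity is usually read from a small set of thermogenic genes. The levels of 10 such genes, Ucp1, Cidea, Cox8b, Cox7a1, Ppargc1a, Dio2, Elovl3, Prdm16, Kcnk3 and Otop1, were followed across 24 adipose tissue libraries. They were taken by symbol from the 24421 gene symbols counted in every library, and all 10 were found. The set is a standard one for thermogenic fat, but it was chosen with earlier results of these libraries known, among them a lower Cox8b level in Y665F females than in WT females. The contrast of Y665F with WT females is therefore given as a description. The fit that all contrasts share was run on it too, but no p-value is printed and its count of calls is used as support for nothing.

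The libraries came from C57BL/6 mice at 2 months of age. Mice were either wild type (WT) or had a point mutation, Y665F or Y665H, in STAT5B, a transcription factor that cytokine and growth hormone receptors activate. Y665F puts phenylalanine, and Y665H histidine, in place of the same tyrosine. Each genotype was sampled in males and in females with 4 numbered libraries per group, which gives 6 groups. The tissue is labelled as adipose, and depot, housing temperature and zygosity are not stated in the labels. They do not say that each library is from a separate animal, so all p-values measure the spread between these libraries, part of which may be technical.

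In thermogenic adipocytes, noradrenaline acts on beta-adrenergic receptors, raises cyclic AMP and releases fatty acids, which are oxidised in mitochondria. UCP1 lets protons flow back across the inner mitochondrial membrane without making ATP, so that the energy leaves as heat. Beige adipocytes arise within white depots and can gain or lose this programme, whereas classical brown adipocytes lie in dedicated depots.

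Promoter windows from RefSeq on GRCm38.p6, the assembly that the mm10 build names, were found for 7 of the 10 genes: Prdm16, Otop1, Ppargc1a, Cox7a1, Cox8b, Ucp1 and Dio2. The 4 windows of 250 bases shown end just before the annotated start and are written 5′ to 3′ on the gene's own strand. They are shown for Ucp1, for Cox8b, whose level was known when the genes were chosen, and for Dio2 and Ppargc1a, known targets of cyclic AMP signalling. Capitals mark matches to TGACG (the 5-base cyclic AMP response core, also when it lies within TGACGTCA), AGGTCA (a nuclear receptor core) or TATAAA, on either strand. The windows lie at chr8:83290098-83290347 (plus strand) for Ucp1, chr7:140900447-140900696 (minus) for Cox8b, chr12:90739039-90739288 (minus) for Dio2 and chr5:51567726-51567975 (minus) for Ppargc1a.
Ucp1: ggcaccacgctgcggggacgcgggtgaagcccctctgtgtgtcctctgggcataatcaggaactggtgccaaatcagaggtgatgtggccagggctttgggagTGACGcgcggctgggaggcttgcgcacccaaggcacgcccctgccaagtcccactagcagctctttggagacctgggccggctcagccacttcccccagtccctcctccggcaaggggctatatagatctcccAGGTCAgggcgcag
Cox8b: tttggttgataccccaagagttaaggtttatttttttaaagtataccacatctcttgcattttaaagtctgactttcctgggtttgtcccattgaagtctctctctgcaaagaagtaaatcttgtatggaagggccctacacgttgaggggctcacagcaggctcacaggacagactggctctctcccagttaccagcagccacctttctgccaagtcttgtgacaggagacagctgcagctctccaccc
Dio2: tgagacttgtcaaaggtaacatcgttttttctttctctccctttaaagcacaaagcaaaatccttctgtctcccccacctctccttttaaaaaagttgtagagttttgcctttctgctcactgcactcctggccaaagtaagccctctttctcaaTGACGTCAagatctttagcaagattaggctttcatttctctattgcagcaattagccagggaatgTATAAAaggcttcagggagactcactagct
Ppargc1a: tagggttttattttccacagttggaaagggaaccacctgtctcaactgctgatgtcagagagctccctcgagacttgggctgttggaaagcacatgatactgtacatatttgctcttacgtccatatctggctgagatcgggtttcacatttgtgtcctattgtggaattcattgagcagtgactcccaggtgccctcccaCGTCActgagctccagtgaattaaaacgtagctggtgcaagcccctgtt

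The Ucp1 window held TGACG at bases 147 to 143 before the start and AGGTCA at bases 14 to 9. Dio2 held the full cyclic AMP response element TGACGTCA at bases 95 to 88 and TATAAA at bases 30 to 25, and Ppargc1a held TGACG on the opposite strand at bases 49 to 45. None of the motifs in capitals occurred in the Cox8b window. Among all 32851 windows of this length, TGACG occurred in 17.8%, TGACGTCA in 1.55%, AGGTCA in 14.0% and TATAAA in 12.4%. The STAT motif TTCNNNGAA occurred in 7.02% of all windows and in 0 of the 7 found here, which says only that these letters are not within 250 bases before those starts. Also searched on both strands were TCAAGGTCA, the EBF motif and CANNTG, found in 0.387, 0.779 and 66.2% of all windows, and of these only CANNTG occurred in the 7, in Otop1, Ppargc1a, Cox7a1 and Cox8b. A match of letters is a description and not a binding site.

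Library depth ran from 21.0 M to 41.3 M gene counts with a median of 34.6 M, where M is 1000000. Levels are gene counts scaled to a library total of 1 M (CPM), and a count of 0 allows up to 3 counts, or 0.0726 to 0.143 CPM depending on the library, for counting error only. Adipocyte genes were abundant in every library: 12 adipocyte genes, among them Adipoq and Plin1, summed to 10952 CPM in WT male 2 and to 36251 CPM in Y665H female 3, the lowest and highest of the 24. Genes of other tissues varied between libraries. The sum of 15 skeletal muscle genes ran from 14.3 to 1962 CPM, and 9 epididymis genes were at 1.12, 14619, 3352 and 1262 CPM in WT males 1 to 4 and at most at 0.584 CPM in females. In bulk tissue, fewer cells of a type and less RNA per cell cannot be told apart.

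The uncoupling protein gene Ucp1 (chr8:83290352-83298452) was highest in WT females and in part of the Y665H females. In WT females it was at 8.17, 9.26, 4.68 and 24.9 CPM in libraries 1 to 4, and in Y665F females at 0.220, 0.148, 0.858 and 0.136 CPM. In Y665H females it was at 15.8, 88.1, 0.684 and 0.312 CPM, a 282-fold range within 1 group. Y665H females 1 and 2 thus lay within or above the WT range while Y665H females 3 and 4 lay within the Y665F range. WT males had 1, 2, 1 and 2 counts, at or below 0.0639 CPM, and the 4 Y665H males had none. Y665F males had no count in libraries 1 and 3, 0.251 CPM in library 2 and 3.24 CPM in library 4, which stood alone among the 12 male libraries and lay above all 4 Y665F females and above Y665H females 3 and 4. Ordered by group mean, Ucp1 ran from Y665H females (26.2 ± 41.9 CPM, SD, n = 4) and WT females (11.7 ± 8.96) down to Y665F males (0.873 ± 1.58), Y665F females (0.340 ± 0.347), WT males (0.0448 ± 0.0187) and Y665H males. Of the neighbours in that order, Y665H and WT females overlapped and so did Y665F males and Y665F females, and both WT and Y665H males were under the limit that 3 counts set.

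Cidea encodes a lipid droplet protein that promotes droplet fusion and marks brown fat. WT females had Cidea at 9.68, 19.6, 22.7 and 23.7 CPM, whereas Y665F females had 0.403, 0.917, 3.06 and 1.73 CPM. In Y665H females it was at 29.5, 43.8, 8.74 and 11.0 CPM. Every Y665F female was below every WT female, and Y665H females lay on both sides of the WT range with libraries 1 and 2 on top. Males of all genotypes ran from 0.906 to 5.10 CPM, the top value again in Y665F male 4, and every male was below every WT and every Y665H female.

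**Figure D1:**
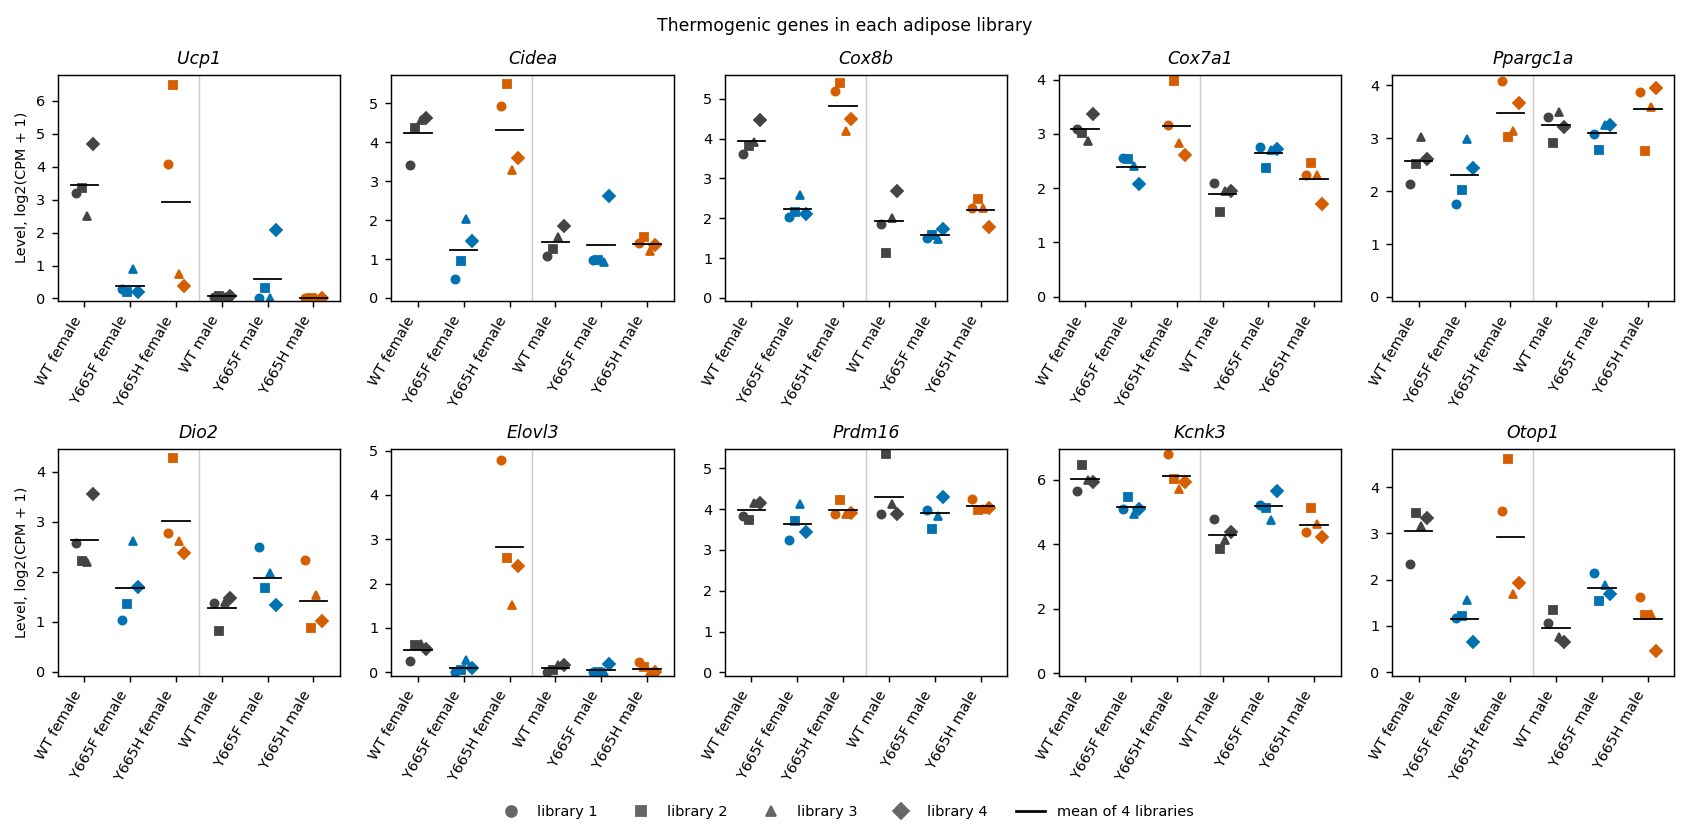
Level of each of the 10 genes, as log2(CPM + 1) on the vertical axis, in the 24 libraries grouped by genotype and sex, with females left of the grey line and males right; symbols give the library number and bars the mean of 4 libraries. Ucp1 in Y665H females spreads from 0.312 to 88.1 CPM before the log, while Prdm16 stays between 8.50 and 40.1 CPM in all 24 libraries.

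Cox8b (chr7:140898945-140900446) and Cox7a1 (chr7:30184144-30186078) encode subunits of cytochrome c oxidase, the last complex of the respiratory chain, in the versions used by brown fat, heart and skeletal muscle. Cox8b was at 11.2, 13.1, 14.1 and 21.0 CPM in WT females, at 3.08, 3.46, 5.05 and 3.33 CPM in Y665F females and at 35.7, 41.1, 17.3 and 21.4 CPM in Y665H females. Each Y665F female was below all WT females, and the lowest Y665H female was above 3 of the 4 WT females. Males ran from 1.18 to 5.44 CPM. Cox7a1 varied less: it was at 7.46, 7.10, 6.26 and 9.31 CPM in WT females, at 4.91, 4.79, 4.29 and 3.23 CPM in Y665F females and at 7.90, 14.7, 6.09 and 5.14 CPM in Y665H females. In males the order of the genotypes differed from that in females, with WT males at 3.25, 1.95, 2.85 and 2.86 CPM and Y665F males at 5.78, 4.17, 5.53 and 5.58 CPM. All 4 Y665F males were above all 4 WT males.

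The Cox8b share can also be read against Cox8a, the version made in most tissues, within the same library. Cox8a itself averaged 176.2 CPM in WT, 97.8 CPM in Y665F and 158.1 CPM in Y665H females, so the ratio carries differences of both genes. For every 100 Cox8a counts, WT females had 5.54 to 11.9 Cox8b counts, Y665F females 2.65 to 6.82 and Y665H females 13.1 to 23.4. Y665H females thus lay above both other female groups, and Y665F female 3 was above WT female 2. In males the ratio was 0.655 to 3.43 in WT, 1.10 to 1.56 in Y665F and 1.34 to 3.35 in Y665H. For Cox7a1 against its widely made counterpart Cox7a2, the median per 100 counts was 13.0 for female WT, 9.27 for female Y665F and 10.4 for female Y665H libraries, with ranges that overlapped.

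Ppargc1a (chr5:51454250-51567726) encodes PGC-1alpha, a coactivator of mitochondrial biogenesis. It was at 3.39, 4.69, 7.10 and 5.12 CPM in WT females, at 2.38, 3.07, 6.90 and 4.45 CPM in Y665F females and at 16.0, 7.11, 7.83 and 11.8 CPM in Y665H females. The lowest Y665H female, at 7.11 CPM, was just above the highest WT female. WT males ran from 6.52 to 10.3 CPM, Y665F males from 5.85 to 8.58 CPM and Y665H males from 5.81 to 14.5 CPM.

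Prdm16 (chr4:154316125-154636873) encodes a transcriptional regulator that commits cells to the brown and beige fate. It ranged from 12.3 to 16.9 CPM in WT females, from 8.50 to 16.3 CPM in Y665F females and from 13.7 to 17.7 CPM in Y665H females, so the groups overlapped. Males ran from 10.4 to 18.8 CPM apart from WT male 2 at 40.1 CPM. WT male 2 also had the highest epididymis sum and the lowest adipocyte sum of all libraries, and the part of these in its Prdm16 level was not tested.

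Dio2 (chr12:90724552-90738438) encodes the deiodinase that makes active thyroid hormone within brown fat. It was at 4.99, 3.63, 3.60 and 10.8 CPM in WT females, at 1.06, 1.57, 5.12 and 2.24 CPM in Y665F females and at 5.84, 18.4, 5.16 and 4.17 CPM in Y665H females. Only Y665F female 3 reached the WT range, and Y665H female 2 was the highest library. Males ran from 0.767 to 4.65 CPM. Elovl3 (chr19:46131897-46135694) encodes an elongase of very long chain fatty acids that is induced by cold in brown fat. Its counts were low everywhere except in Y665H females, where it was at 26.7, 4.97, 1.87 and 4.29 CPM. WT females were at 0.190, 0.519, 0.564 and 0.434 CPM, and Y665F females at 0, 0.0296, 0.206 and 0.0679 CPM. Male libraries did not exceed 0.165 CPM.

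The last pair of genes encode membrane channels. Kcnk3 (chr5:30588170-30625271) encodes the potassium channel TASK1, which in brown fat limits the adrenergic response, and Otop1 (chr5:38275972-38304217) encodes a proton channel enriched in brown fat. Kcnk3 had the highest CPM of the 10 genes in 22 of the 24 libraries, the exceptions being WT male 2 with Prdm16 and Y665H female 2 with Ucp1. Its level was 49.9, 87.8, 63.0 and 60.4 CPM in WT females, 32.9, 43.7, 30.0 and 33.0 CPM for Y665F females and 111, 63.8, 51.3 and 59.7 CPM in Y665H females. Male Kcnk3 was at 26.9, 13.6, 16.7 and 19.8 CPM in WT and at 36.0, 34.1, 25.8 and 49.6 CPM in Y665F, so that the lowest Y665F male fell below the highest WT male. Otop1 was at 4.01, 9.80, 7.90 and 9.02 CPM in WT females, at 1.25, 1.33, 1.92 and 0.577 CPM in Y665F females and at 10.3, 23.4, 2.21 and 2.78 CPM in Y665H females. In males it was at 1.09, 1.53, 0.691 and 0.579 CPM in WT and at 3.43, 1.88, 2.67 and 2.21 CPM in Y665F, with no overlap. Both channel genes were thus lower in Y665F than in WT females and higher, for Kcnk3 with overlap, in Y665F than in WT males.

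Per kilobase of exon, which allows genes to be compared with each other, Cox8b led in WT females with 41.3 ± 11.9 CPM per kb (SD, n = 4). Cidea (16.9 ± 5.73), Kcnk3 (16.4 ± 4.04) and Cox7a1 (14.1 ± 2.40) followed within each other's spread. Ucp1 came next at 7.18 ± 5.48 CPM per kb, above Otop1 at 2.23 ± 0.746 and Prdm16 at 1.59 ± 0.245. In WT males the order of the upper genes was Cox8b (8.56 ± 4.90), Cox7a1 (5.10 ± 1.03) and Kcnk3 (4.84 ± 1.43), and Ucp1 was at 0.0274 ± 0.0114 CPM per kb.

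How the Y665F substitution went with the thermogenic genes in females was described first. Genes were compared with the quasi-likelihood test of edgeR, with a gene termed called at an adjusted p under 0.05 over all tested genes. Relative to WT females, the log2 fold change in Y665F females was -5.25 for Ucp1 (SE 0.76), -3.78 for Cidea (SE 0.56), -2.74 for Otop1 (SE 0.39) and -2.13 for Cox8b (SE 0.23). These correspond to levels 38.1-fold, 13.7-fold, 6.66-fold and 4.39-fold lower. Smaller differences were seen for Dio2 at -1.36 (SE 0.53), Kcnk3 at -1.03 (SE 0.20), Cox7a1 at -0.94 (SE 0.19), Prdm16 at -0.48 (SE 0.20) and Ppargc1a at -0.42 (SE 0.34). Elovl3 did not pass the filter on low counts, with 63 counts in WT and 9 in Y665F females, a CPM ratio of 5.69 (95% counting interval 2.82 to 13.0). A counting interval is from pooled counts and leaves out the spread between libraries. Of the 9 genes tested, 6 were called lower, where 1.02% of all tested genes were called lower and 2.31% higher. The same 6 did not overlap between the groups, where 2.96% of tested genes were lower and 19.9% higher without overlap. The count called was 2 when WT female 2 or 4 or Y665F female 1 or 4 was left out and 3 in a fit over all 24 libraries. Ucp1 passed the filter only through its WT libraries, and Cox8b in this contrast was known when the genes were chosen, so nothing is read from these counts.

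Other cell types moved in the same libraries. All 13 tested skeletal muscle genes had a log2 fold change below 0 in Y665F females, with a median of -4.20, and their summed level was 32.4 to 180 CPM against 95.2 to 1098 CPM in WT females. All 12 adipocyte genes were also below 0, with a median of -0.41, and summed to 16928 to 29890 CPM against 27651 to 33261 CPM. The 8 measured genes of T and NK cells, among them Cd3g, Lck and Il2rb, were all above 0, with a median of 1.83 and a summed 34.0 to 50.8 CPM against 10.1 to 14.5 CPM. Reads assigned to no gene, a sign of library quality, were 32.5 to 35.9% of deposited counts in Y665F females, 27.9 to 30.3% in WT females and 24.8 to 29.9% in Y665H females, so that Y665F females stood apart from both in this too. The part of these cell types and of that share in the thermogenic levels was not tested, here or between the mutants. Median log2 fold changes put the sizes side by side: -1.36 over the 9 thermogenic genes, -0.41 over the adipocyte genes and 0.02 over all tested genes.

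**Figure D2:**
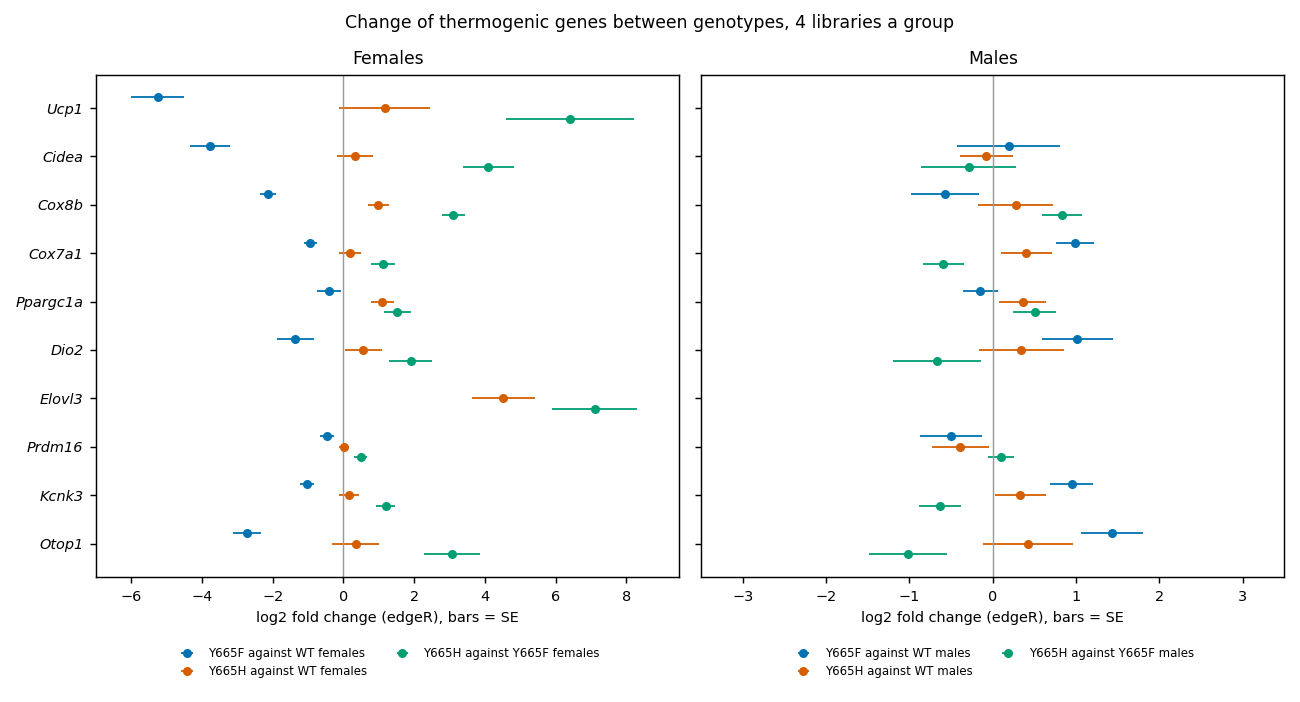
Log2 fold change with its standard error (horizontal axis, bars) for each thermogenic gene between genotypes, in females on the left and in males on the right, from 4 libraries a group; genes without a point did not pass the low-count filter. In females Ucp1 is at -5.25 for Y665F against WT and at 6.41 for Y665H against Y665F, and in males no gene passes 1.43 in size.

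Y665H females were next compared with WT females, which are the same WT libraries as in the contrast above. Elovl3 rose by 4.53 log2 units (SE 0.90, edgeR adjusted p = 0.0363), with all 4 Y665H libraries above all 4 WT libraries. In raw counts Elovl3 had 1426 counts in Y665H and 63 in WT females, a CPM ratio of 23.4 (95% counting interval 18.2 to 30.6). This interval is from pooled counts and leaves out the spread between libraries. Elovl3 was the only call among 10 tested genes, where 1.53% of all tested genes were called higher and 1.8% lower. Elovl3 passed the low-count filter only through the Y665H libraries, and of the other 9 genes 0 were called. Ppargc1a, at 1.11 log2 units (SE 0.32, edgeR adjusted p = 0.0869), was the other gene without overlap, and 6.45% of all tested genes were higher and 6.81% lower without overlap. Cox8b was at 0.98 (SE 0.30, edgeR adjusted p = 0.104). Ucp1 was at 1.17 (SE 1.28, edgeR adjusted p = 0.607), with a 95% interval from -1.34 to 3.67 that leaves its direction undetermined. The other 6 genes were between 0.01 for Prdm16 and 0.55 for Dio2, with edgeR adjusted p-values of at least 0.545.

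The Elovl3 call did not hold when single libraries were left out. It was lost without WT female 1, 2 or 4 and without Y665H female 2 or 4, where the edgeR adjusted p reached up to 0.127. Over all 8 fits the log2 fold change lay between 3.09 and 4.87, the lowest without Y665H female 1, which alone holds 1034 of the 1426 counts. Ppargc1a was called without WT female 3 (edgeR adjusted p = 0.0477).

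Between the mutants, Y665H females had higher thermogenic levels than Y665F females in 7 of 10 genes called, where 8.77% of all tested genes were called higher and 8.59% lower. Cox8b rose by 3.11 (SE 0.32, edgeR adjusted p = 0.00149), Cidea by 4.10 (SE 0.73, edgeR adjusted p = 0.00793) and Elovl3 by 7.11 (SE 1.20, edgeR adjusted p = 0.00669) on the log2 scale. Kcnk3 rose by 1.19 (SE 0.28, edgeR adjusted p = 0.0211), Ppargc1a by 1.52 (SE 0.38, edgeR adjusted p = 0.0291) and Otop1 by 3.08 (SE 0.79, edgeR adjusted p = 0.0304). Ucp1 rose by 6.41 (SE 1.81, edgeR adjusted p = 0.0438), although Y665H female 4, at 0.312 CPM, and Y665H female 3, at 0.684 CPM, lay below Y665F female 3. Cox7a1, at 1.12 (SE 0.33, edgeR adjusted p = 0.0502), Dio2, at 1.91 (SE 0.61, edgeR adjusted p = 0.0635), and Prdm16, at 0.49 (SE 0.19, edgeR adjusted p = 0.113), were not called. The groups did not overlap for 7 genes, Cox7a1 among them and Ucp1 not, where 6.62% of all tested genes were higher and 21.5% lower without overlap. Ucp1 and Elovl3 passed the filter only through Y665H libraries, and without them 5 of 8 genes were called, or 4 of 7 without Cox8b as well. The Y665F libraries are those of the described contrast, so the higher level in Y665H is not independent of the lower level in Y665F.

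The calls of Cox8b and Elovl3 held in all 8 fits that left out 1 library, and so did that of Cidea. Ucp1 lost its call in 6 of the 8, with an edgeR adjusted p of up to 0.107 and a log2 fold change of 4.29 without Y665H female 2. Otop1 and Ppargc1a each lost it in 5, both of them without Y665F female 1, 2 or 4 and Y665H female 1, with Otop1 also without Y665H female 2 and Ppargc1a also without Y665H female 4. Kcnk3 lost it without Y665F female 1 or 4. The largest edgeR adjusted p was 0.0794 for Otop1, 0.0735 for Ppargc1a and 0.0591 for Kcnk3. Without Y665F female 3, Dio2 and Prdm16 were called (edgeR adjusted p = 0.0223 and 0.0211), and without Y665H female 4 so was Cox7a1 (edgeR adjusted p = 0.0332).

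Other cell types differed between the mutants as well. All 13 tested muscle genes were above 0 in Y665H against Y665F females, at a median of 4.95, and 8 were called, Myh4, Pvalb, Atp2a1 and Mb leading. Of 8 T and NK cell genes 6 were called lower, among them Il2rb and Nkg7, with all 8 below 0 and a median of -1.78. Of 12 adipocyte genes 11 were above 0, with a median of 0.47, and Cfd and Pparg were called higher. In this contrast 8.77% of all tested genes were called higher and 8.59% lower. The part of these cell types in the thermogenic levels was not tested. Cox8b and Cox7a1 are made in muscle, so their levels were set beside the muscle sum library by library. Muscle sums were 24.9, 170.4, 1962 and 571.8 CPM in Y665H females 1 to 4, where Cox8b was at 35.7, 41.1, 17.3 and 21.4 CPM. For correlations, the muscle level was the mean log2(CPM + 1) of the 15 muscle genes. Over the 24 libraries with group means left in, it correlated at r = 0.63 with Cox8b, 0.55 with Cox7a1 and 0.45 with Ucp1. The deviations from the group means correlated with those of the muscle genes at r = -0.23 for Cox8b, -0.10 for Cox7a1 and -0.28 for Ucp1, a description over libraries that share their groups and sequencing. Elovl3 deviations were at r = -0.71, those of Kcnk3 at -0.55 and of Otop1 at -0.51. The share of Cox8b and Cox7a1 RNA that came from muscle was not tested.

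**Figure D3:**
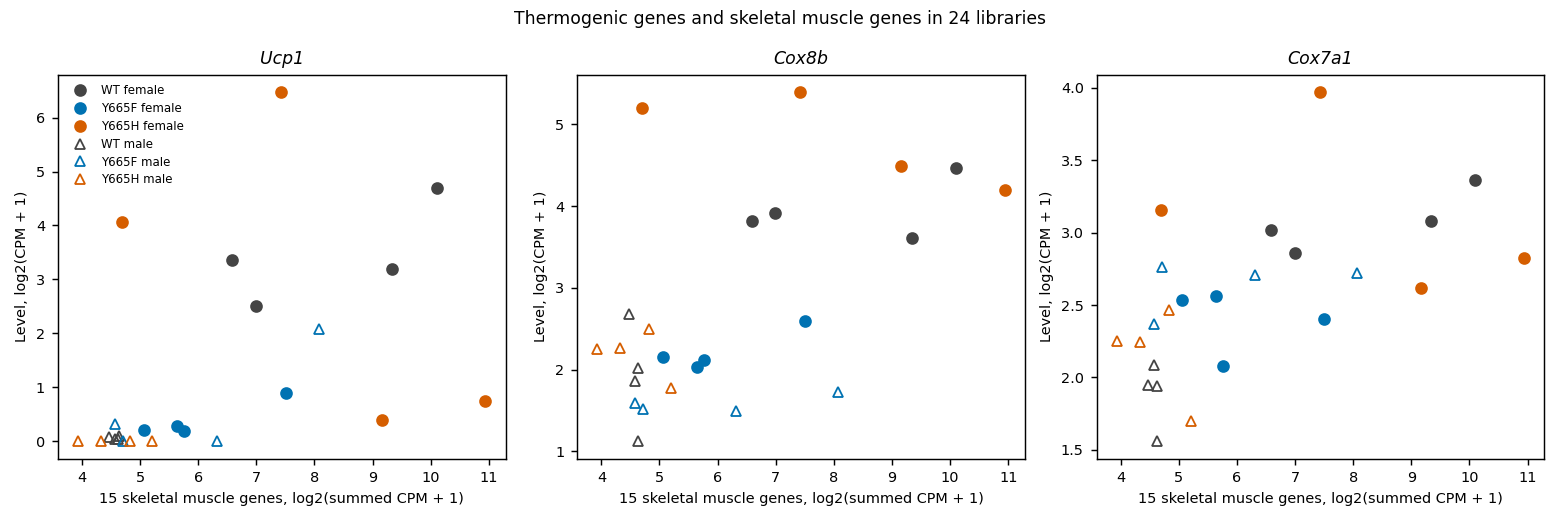
Level of Ucp1, Cox8b and Cox7a1, as log2(CPM + 1) on the vertical axes, against the summed level of 15 skeletal muscle genes, as log2(summed CPM + 1), in 24 libraries coloured by genotype, with circles for females and triangles for males. Each r is with the mean log2(CPM + 1) of the 15 muscle genes, not with the plotted sum. Over the 24 libraries r is 0.45 for Ucp1, 0.63 for Cox8b and 0.55 for Cox7a1. After taking out group means it is -0.28, -0.23 and -0.10.

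Males give contrasts that share no library with the described female one. Between Y665F and WT males, 0 of 8 tested genes were called by edgeR, where 0.0% of all tested genes were called. At an unadjusted p under 0.05 there were 4 of the 8 and 2772 of 16240 genes. DESeq2, with 1141 genes called in all, called 3 of the 8. The 3 were Cox7a1, at 0.99 log2 units (SE 0.23, edgeR adjusted p = 0.153), Otop1 at 1.43 (SE 0.37, edgeR adjusted p = 0.185) and Kcnk3 at 0.95 (SE 0.26, edgeR adjusted p = 0.197). Cox7a1 and Otop1 were higher in Y665F without overlap, as were 5.59% of all tested genes, while 3.26% were lower. Dio2 was at 1.01 (SE 0.43, edgeR adjusted p = 0.286), while Cox8b was at -0.57 (SE 0.41), Prdm16 at -0.50 (SE 0.37), Ppargc1a at -0.15 (SE 0.21) and Cidea at 0.19 (SE 0.62), all with edgeR adjusted p-values of at least 0.466. Ucp1 and Elovl3 were too low to test. WT male 1, the WT male with the fewest epididymis counts, decided 1 call: without it, Kcnk3 was called higher in Y665F (edgeR adjusted p = 0.0469). Y665F males also had more T and NK cell RNA, a summed 45.9 to 71.4 CPM against 13.6 to 21.1 CPM in WT males. All 5 tested epididymis genes (median -4.32) and 8 of 9 epithelial genes (median -2.20) were below 0, and 11 of 12 adipocyte genes were above 0 (median 0.23), none called by edgeR. The part of these in the thermogenic levels was not tested.

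Between Y665H and WT males, 0 of 8 genes were called (0.0% of all tested genes). None of the 8 and 1874 of 16406 genes had an unadjusted p under 0.05. DESeq2 called 0 of the 8 and 119 genes in all. The largest difference was 0.42 for Otop1 (SE 0.54), and the edgeR adjusted p-values ran from 0.487 to 0.904. Between Y665H and Y665F males, 0 of 8 were called, where 0.125% of all tested genes were called higher and 0.901% lower. At an unadjusted p under 0.05 there were 3 of the 8 and 2879 of 15986 genes. Cox8b was higher in Y665H without overlap, at 0.83 (SE 0.24, edgeR adjusted p = 0.136), as were 6.29% of all tested genes (6.17% were lower). Of the 8 it was the 1 gene that DESeq2 called, with 1097 genes called in all. Otop1 was at -1.02 (SE 0.47), Kcnk3 at -0.63 (SE 0.25) and Cox7a1 at -0.59 (SE 0.25), with edgeR adjusted p-values of 0.299, 0.232 and 0.251.

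The sex difference in WT animals was wide. In WT males 7 of 9 tested genes were called lower than in WT females, where 5.95% of all tested genes were called lower and 7.15% higher. The same 7 did not overlap, where 7.01% of tested genes were lower and 18.2% higher without overlap. Ucp1 fell by 8.08 log2 units (SE 0.71, edgeR adjusted p = 0.00178), from 1692 to 6 counts. The CPM ratio was 259 (95% counting interval 119 to 707), an interval from pooled counts that leaves out the spread between libraries. Cidea fell by 3.59 (SE 0.37, edgeR adjusted p = 0.00299), Otop1 fell by 3.12 (SE 0.43, edgeR adjusted p = 0.00727) and Kcnk3 by 1.91 (SE 0.26, edgeR adjusted p = 0.00739). Cox7a1 fell by 1.61 (SE 0.23, edgeR adjusted p = 0.00826), Cox8b by 2.43 (SE 0.42, edgeR adjusted p = 0.0151) and Dio2 fell by 2.13 (SE 0.45, edgeR adjusted p = 0.0239). Ppargc1a, at 0.63 (SE 0.27, edgeR adjusted p = 0.140), and Prdm16, at 0.35 (SE 0.36, edgeR adjusted p = 0.518), were not called and lay above 0.

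Elovl3 did not pass the filter in that contrast and had 9 counts in WT males against 63 in WT females. Ucp1 passed it only through the female libraries, and these are the WT females of the described contrast. Without Ucp1 6 of 8 genes were called lower, and without Cox8b as well 5 of 7. Cox8b was not called without WT female 2, 3 or 4 (edgeR adjusted p up to 0.0620), and Dio2 was not called when any 1 of the 4 WT females, or WT male 3, was left out (edgeR adjusted p up to 0.0698). Other tissue genes differed as well: 10 of 14 tested muscle genes were called lower in WT males, where they summed to 21.2 to 23.8 CPM, and the 12 adipocyte genes were all below 0 with a median of -0.72 and none called. The males hold epididymis RNA that the females lack, and the labels do not say whether the same depot was taken from both sexes, so sex and depot cannot be told apart.

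Whether the Y665F difference itself differed between the sexes was tested as an interaction on 16 libraries, of which 8 are those of the described female contrast. By edgeR 0 of 9 genes were called, as were 0.0% of all tested genes, while 7 of the 9 and 3645 of 16732 genes had an unadjusted p under 0.05. The male minus the female log2 fold change was 4.16 for Otop1 (SE 0.58, edgeR adjusted p = 0.0686), 1.92 for Cox7a1 (SE 0.29, edgeR adjusted p = 0.0819) and 1.98 for Kcnk3 (SE 0.34, edgeR adjusted p = 0.107). Ucp1 was at 9.42 (edgeR adjusted p = 0.107) and Cidea at 3.98 (SE 0.88), not called, while Ppargc1a, at 0.27 (SE 0.42), and Prdm16, at -0.04 (SE 0.45), were near 0. Without WT male 1, Ucp1, Cidea, Cox7a1, Kcnk3 and Otop1 were called (edgeR adjusted p = 0.0227, 0.0295, 0.00566, 0.00566 and 0.00662), together with 1686 genes in all. Otop1 was also called without WT female 1 or without WT male 2. DESeq2 called 7 of the 9, Ucp1 among them, and 1168 genes in all. The Ucp1 value and its calls have a male side of few counts, too low to test in males alone. WT males held 6 Ucp1 counts in all, and Y665F males held 0, 10, 0 and 101 in libraries 1 to 4. The male side thus rests largely on Y665F male 4, so nothing is read from the Ucp1 interaction. Other tissues moved in the same interaction: 14 of 14 muscle genes (median 4.88) and 11 of 12 adipocyte genes (median 0.66) were above 0, and 9 of 9 epithelial genes were below 0 (median -3.30), none of them called by edgeR and their part not tested. For Y665H the interaction called 0 of 10 genes, where 0.0119% of all tested genes were called higher. At an unadjusted p under 0.05 there were 1 of the 10 and 3079 of 16827 genes. DESeq2 called 1 of the 10, Elovl3, and 715 genes in all.

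Some thermogenic genes varied together inside the groups. After the group means were taken out, Pearson's r over the 24 libraries ran from -0.30 to 0.78 over the 45 pairs, with a median of 0.38 and 6 pairs below 0. It was 0.78 between Ucp1 and Cidea, 0.77 between Ucp1 and Otop1, 0.74 between Cox7a1 and Otop1 and 0.73 between Ucp1 and Cox7a1. Ppargc1a was at -0.03, Prdm16 at 0.26 and Kcnk3 at 0.29 with Ucp1, and Dio2 was at -0.20 with Kcnk3 and 0.03 with Elovl3. These are descriptions over libraries that share depth and cell composition. A few libraries stood out over many genes: Y665F female 3 was the highest of its group for 8 of 10 genes, Y665H female 2 for 7 and Y665F male 4 for 6. The opposite was seen in WT female 1, Y665F female 1 and Y665H female 3, each the lowest of its group for 6 genes. Y665F female 3 also had the highest epithelial sum among females, 1378 CPM over 10 genes such as Krt8 and Epcam, and the lowest adipocyte sum among them, and Y665F male 4 had the highest muscle sum among males, 267.8 CPM. The part of these in the thermogenic levels was not tested.

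**Figure D4:**
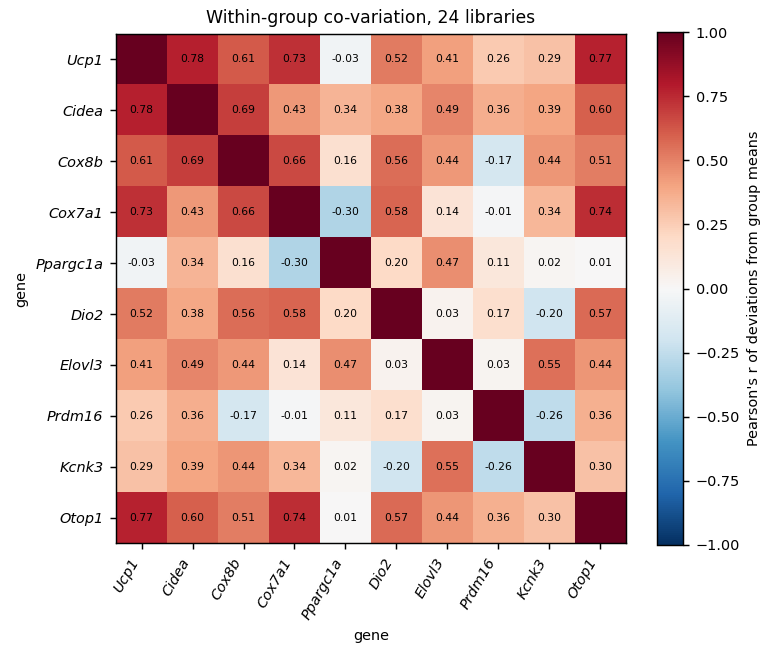
Pearson's r between each pair of the 10 genes over 24 libraries, computed on log2(CPM + 1) after subtracting each group's mean, with red for positive and blue for negative values. Ucp1, Cidea, Cox8b, Cox7a1 and Otop1 form a block of r between 0.43 and 0.78, while Ppargc1a and Prdm16 stay between -0.30 and 0.47 with the other genes.

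Over all 24 libraries with group means left in, genes most like each thermogenic gene were sought among 14838 genes that averaged 1 CPM or more. Among the closest to Ucp1 were Tfr2 (r = 0.85), Letmd1 (0.76) and Atp5e (0.74), and to Cidea Tfr2 (0.90) and Cpt2 (0.84). Among the closest to Cox8b were Hadha (0.95) and Coq9 (0.92), which act in mitochondrial fat oxidation and coenzyme Q synthesis. Ppargc1a was most like H1f0 (0.84), 6430573F11Rik (0.84) and 9330159F19Rik (0.83), and Dio2 was most like Adam12 (0.81), Clstn3 (0.81) and Pdk4 (0.79). Each r is over 24 libraries that fall into 6 groups.

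The thermogenic programme beyond the 10 genes was read from 6 lists. In Y665H against Y665F females, 7 of 16 tested effector genes were called higher and none lower, where 8.77% of all tested genes were called higher. Among them were Pank1, which starts coenzyme A synthesis (log2 fold change 1.38), Slc25a20, the carnitine-acylcarnitine carrier (0.97), and Nrg4, a factor secreted by brown fat (1.45). Their median was 0.56, against -0.03 over all tested genes. In Y665F against WT females, given as a description, 13 of 16 were below 0 at a median of -0.28, with Plin5, a lipid droplet protein of oxidative cells, at -1.17 and Nrg4 at -0.98. In Y665H against WT females, Pank1 (1.08) and Slc25a20 (0.72) were called higher, 2 of 16, and none lower, where 1.53% of all tested genes were called higher and 1.8% lower. Calls in that contrast depended on single libraries, with 516 genes called in all and 20 without WT female 1. Calls of list genes were not followed through the fits that left out 1 library. In WT males 2 of 16 were called lower than in WT females, Letmd1 among them, where 5.95% of all tested genes were.

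Of 15 tested transcriptional regulators 1, Ppargc1b, the paralogue of Ppargc1a, was called higher in Y665H against WT females, from 21.1 ± 2.23 to 29.1 ± 0.611 CPM (SD, n = 4). In that contrast 1.53% of all tested genes were called higher and 1.8% lower. Ppargc1b, Ppara and Pparg were the 3 of 15 called higher in Y665H against Y665F females, where 8.77% of all tested genes were. Among 5 tested beige markers, Slc27a1, a fatty acid transporter, was called higher in Y665H females against either other group, by 1.05 and 1.58. The list as a whole was split, with 3 genes above 0 and 2 below 0 in both contrasts (medians 0.12 and 0.33). In WT males against WT females 1 of 5 was called higher and 1 lower, where 7.15% of all tested genes were called higher and 5.95% lower. For Y665H females the shares of all tested genes called higher were 1.53% against WT and 8.77% against Y665F females. Of 11 beta-adrenergic genes, edgeR called none in Y665H against WT females. Adrb3, the beta-3 adrenergic receptor of adipocytes, was at 348.6 ± 24.5 CPM in WT, 304.7 ± 25.7 in Y665F and 361.4 ± 61.0 in Y665H females. Of the 11 beta-adrenergic genes, 2 were called higher in Y665H against Y665F females and none lower. They were Pde3b, which breaks down cyclic AMP, and Gnas, which encodes the stimulatory G protein subunit. Of all tested genes 8.77% were called higher in that contrast and 8.59% lower, and with a list of 11 genes nothing is read from the 2 calls. In the 3 contrasts between genotypes in males, edgeR called no gene of the 6 lists. Of all tested genes it called 0.0% in Y665F and in Y665H against WT males. Between Y665H and Y665F males it called 0.125% higher and 0.901% lower, so nothing about the lists is read from the absence of calls.

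Genes related to the 10 were read last. Of 16 tested relatives, Elovl5, which elongates polyunsaturated fatty acids, Ppargc1b and the potassium channel gene Kcnk2 were called higher in Y665H against WT females, by 0.78, 0.48 and 0.51. Of all tested genes 1.53% were called higher in that contrast and 1.8% lower. In Y665H against Y665F females 6 of the 16 were called higher, among them Elovl5, Ppargc1b and Cox7a2, and 1, Pprc1, lower, where 8.77% of all tested genes were called higher and 8.59% lower. Ucp2, whose product is not the thermogenic uncoupler, was at 151.3 ± 49.1 and 183.6 ± 28.8 CPM (SD, n = 4) in WT and Y665F females and averaged 107.2 CPM in Y665H females.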

How the data were processed

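Total RNA of adipose tissue was sequenced in 24 libraries, 4 in each of 6 groups of genotype and sex. Per the labels' protocols, ribosomal RNA was removed and stranded libraries were sequenced as read pairs. The ribosomal RNA precursor Rn45s still held 4.02 to 15.0% of gene counts in males and 3.27 to 8.40% in females. It is part of the total that CPM is scaled to. The authors deposited raw counts of reads per gene symbol, 1 file per library. FastQC 0.11.9, Trimmomatic 0.36, STAR, SAMtools 1.9, Picard 2.9.2 and HTSeq 0.9.1 and the build mm10 are named per the submitters' processing notes, while the annotation and the strand setting are not given in the sources used here. Overlapping or antisense reads could therefore be shared between genes. The 5 entries that name no gene held 24.8 to 39.7% of the deposited counts and were left out.

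Levels are CPM over gene symbols. R 4.3.3 with edgeR 4.0.16 and its dependency limma 3.58.1 gave the quasi-likelihood tests of the counts, using filterByExpr at its defaults, TMM scaling and Benjamini-Hochberg adjustment over all tested genes. The scripts were checked on simulated data. DESeq2 1.42.0, library totals in place of TMM, no filter, a fit over all 24 libraries, a replicate block and leaving out each library in turn were alternatives. Chi-square over genes, per degree of freedom, was at least 16.4 between any pair of libraries of a group, so all were counted as separate samples.

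The 10 genes and the lists were chosen with earlier results of these data known. The rule for named genes takes the 10 genes in every comparison, for each list at most 4 called genes with the smallest p, and for Ucp1, Cidea, Cox8b, Ppargc1a and Dio2 the 3 most correlated genes. Adrb3 and Ucp2 are named outside this rule and were chosen after their values were seen. Gene positions and exon lengths are from GENCODE M21, and promoter windows from RefSeq. Libraries with the same replicate number did not deviate together, with r from -0.37 to 0.72 over 28 pairs and 0 of 7 contrasts with every pair above 0.1, so the numbers were not treated as pairs. A few genes that the rule would name are not reported here.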

Additional observations from a re-analysis of the deposited data

Results flagged for a closer look

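In 59 gene and group combinations with 4 libraries, 9 held a library whose gap to the nearest other exceeded the 95% critical value of Dixon's test. For normally distributed values chance gives about 1 in 20. The gaps were taken on CPM without a log and normality was not checked, so the 9 are not read as an excess over that rate. The pattern was uneven over libraries, with 3 of the 9 in Y665F male 4 and 2 in Y665H female 2.

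Y665F male 4 stood apart for Ucp1 at 3.24 CPM (the others 0 to 0.251 CPM), for Cidea at 5.10 CPM (0.906 to 0.963 CPM) and for Elovl3 at 0.128 CPM, from 4 counts, where the other 3 libraries had none. It also had the highest muscle sum of the male libraries. Y665H female 2 stood apart for Dio2 at 18.4 CPM (4.17 to 5.84 CPM) and for Prdm16 at 17.7 CPM (13.7 to 13.9 CPM).

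Single libraries stood apart in 4 further cases. Y665F female 3 had Ucp1 at 0.858 CPM against 0.136 to 0.220 CPM. Y665H female 1 had Elovl3 at 26.7 CPM against 1.87 to 4.97 CPM. WT male 2 had Prdm16 at 40.1 CPM against 13.6 to 16.3 CPM. Y665F male 2 had Cox7a1 at 4.17 CPM, below the 5.53 to 5.78 CPM of the other libraries.

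For 2 genes the Y665F libraries were all below WT in females and all above WT in males. Of all tested genes 2.96% were lower without overlap in females and 5.59% were higher without overlap in males. The share of all genes with both was not counted, so the 2 genes are a description only. The interaction, male minus female log2 fold change, was 1.92 for Cox7a1 and 4.16 for Otop1, and by edgeR it had an adjusted p of 0.0819 and 0.0686, above the threshold of 0.05. The female side of both is the contrast known when the genes were chosen.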

How the results depend on the processing

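With 4 libraries a group, a gene of a few counts such as Ucp1 in males cannot be ranked between groups, and differences inside the spread of Y665H females were not detectable. Over all alternatives, 1111 fold changes of the 10 genes stayed on their side of the threshold, 33 passed it only then, 61 no longer did, and 0 called ones changed sign. Fold changes that were not called could change sign, as for Ucp1 in Y665H against WT females, from -0.97 to 1.84.

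Thermogenic genes called moved from 6 to 3 (Y665F against WT females) and from 0 to 2 (males) in the fit over all 24 libraries. With DESeq2 they moved from 0 to 3 (Y665F against WT males), 1 to 3 (Y665H against WT females), 0 to 1 (Y665H against Y665F males), 0 to 7 (Y665F by sex) and 0 to 1 (Y665H by sex). Without 1 library they ran from 2 to 7 and 0 to 1 for Y665F against WT in females and males, 0 to 2 and 0 to 0 for Y665H against WT, 3 to 8 and 0 to 0 for Y665H against Y665F, 5 to 8 for WT males against females, and 0 to 5 and 0 to 0 for the interactions of Y665F and Y665H.

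Genes called in all, in the order Y665F against WT (females, males), Y665H against WT (females, males), Y665H against Y665F (females, males), WT males against females, and the interactions of Y665F and Y665H, were 521, 0, 516, 0, 2689, 164, 2079, 0 and 2. DESeq2 called 2027, 1141, 1749 and 119 in the first 4, and 1097, 4483, 1168 and 715 in the last 4. The fit over all libraries called 2261 (Y665F against WT males), 250 and 203 (Y665H against WT), 400 (mutant males), 5987 (WT sexes), 1 and 201 (interactions). Library totals gave 1164 for Y665F against WT females and 71 for Y665H by sex. They moved the median log2 fold change by 0.13, -0.15, 0.15 and -0.18 for Y665F against WT females, Y665H against Y665F females, the WT sexes and Y665F by sex, and in the first 3 the share of calls that were higher from 69.3 to 88.1%, from 50.5 to 24.9% and from 54.6 to 74.1%. Without 1 library the counts ran from 67 to 747, 0 to 570, 20 to 1269, 0 to 1, 1554 to 2839, 10 to 220, 251 to 5076, 0 to 1686 and 0 to 1844, with the upper end without WT male 1 for males against WT, the WT sexes and both interactions.

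The replicate block uses a number that did not pair the libraries. With it, 0 thermogenic genes were called in Y665H against WT females (32 genes in all) and 4 in Y665H against Y665F females (1583 in all), where Ucp1, Cidea, Ppargc1a and Otop1 were no longer called (edgeR adjusted p = 0.164, 0.0507, 0.0801 and 0.0661) and Cox7a1 was, and 0, 825 and 0 genes in all for Y665H against Y665F males, the WT sexes and Y665H by sex.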

Other observations

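Heat can also be made without UCP1, by creatine or calcium cycling. Of 10 such genes, 1 was called in Y665H against WT females, Gamt, which makes creatine, at a log2 fold change of -0.91 (SE 0.14), where 1.8% of all tested genes were called lower. In Y665F against WT females, a description, 7 of 9 tested genes lay above 0. Atp2a1, the calcium pump of fast muscle, is a member of the muscle list as well. It was called higher in Y665H than in Y665F females (5.91, SE 1.22), while 8 of the 9 tested genes lay below 0 (median -0.57). In WT males against WT females Atp2a1 was called lower, while 6 of 9 tested genes lay above 0 and 3 below 0 (median 0.43). In that contrast of the sexes 5.95% of all tested genes were called lower. Other cell types were read as well. In Y665F against WT females, all 6 B cell genes (median 1.38) and all 10 macrophage genes (median 0.53) lay above 0, all 6 endothelial genes lay below 0 (median -0.41), and 7 of 8 tested epithelial genes lay above 0 (median 2.24). In Y665H against Y665F females, 6 of 6 B cell genes and 6 of 10 macrophage genes were called lower, and Emcn higher. There 8.59% of all tested genes were called lower and 8.77% higher.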
